A study of Mus musculus with 22 samples.

Results

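Intravascular kidney B cells were taken from 11 WT C57BL/6 female mice, used at 8 to 10 weeks of age, whose urinary bladders had been inoculated with PBS (6 mice) or with uropathogenic Escherichia coli (UPEC, 5 mice), 2 times each. Kidneys were collected on day 56. An antibody to CD45 was injected into the circulation shortly before death, and CD45IV+ B cells, which the antibody had reached in the vessels, were sorted for sequencing of the immunoglobulin heavy chain (Igh). The organs were not perfused, so this gate holds the B cells of the blood in the kidney. These 11 libraries were chosen by compartment and treatment, with every line kept, out of 22 libraries, 1 intravascular and 1 extravascular from each mouse. Mice of the 2 treatments are different animals, and the question was whether bacterial challenge of the bladder moved the repertoire of circulating B cells. The tables list heavy chains only, so the markers of the gate could not be looked at. All 5492 lines held a productive rearrangement.

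A heavy chain variable region is assembled by joining 1 V, 1 D and 1 J segment, and terminal transferase adds nucleotides without a template, called N, at both joints. The sequence from the end of V to the start of J, the junction, encodes the part of the receptor that differs most between clones. Mature naive B cells of the spleen and blood make IgM and IgD from the same rearrangement by RNA splicing, whereas B-1a cells, a long-lived population made largely in early life, express little IgD and are known for Ighv11 and Ighv12 receptors with few N nucleotides, many of which bind phosphatidylcholine. Class switching replaces IgM and IgD by IgG, IgE or IgA after activation.

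Each line (row) of a library stands for 1 sequence and isotype that was read at least 2 times. A clonotype is here the set of rows with the same junction nucleotides, V segment and J segment. The PBS libraries held 580, 401, 498, 457, 344 and 611 rows in mice 1 to 6, and the UPEC libraries held 359, 347, 580, 938 and 377 rows in mice 1 to 5. Reads per library ranged from 1504 to 6269, and clonotypes from 260 to 406. The reverse primers carried molecular barcodes that were used to filter reads, and whether the read numbers count molecules is not stated. The Wilson interval of a share and the limits for counts of 0 given here therefore cover counting error only. Intervals of differences between treatments come from permutation tests over mice. Nothing in the labels groups the mice by batch, and each replicate is 1 mouse. Shares are given by row and once per clonotype, where each clonotype has the same weight. A pair of libraries stood apart by row. In PBS mouse 6 a single clonotype held 228 of 611 rows, and in UPEC mouse 4 several clonotypes were large, and values without one or the other are given where a difference turned on it. Differences between treatments were tested over mice by the exact two-sided Mann-Whitney test, whose smallest p with 6 against 5 mice is 0.00433, and were adjusted by the Benjamini-Hochberg method over the 23 measures by row or the 18 measures once per clonotype.

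The junctions of the most frequent clonotype of each library are printed first. These clonotypes held from 4 rows in UPEC mouse 2 to 228 rows in PBS mouse 6. The junctions run 5′ to 3′, with N nucleotides in capitals and all other bases, from V, D, J or palindromic ends, in lower case.
PBS mouse 1, Ighv3-5, Ighd2-2, Ighj2: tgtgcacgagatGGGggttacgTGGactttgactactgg
PBS mouse 2, Ighv3-1, Ighd4-1, Ighj4: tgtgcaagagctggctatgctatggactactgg
PBS mouse 3, Ighv3-1, Ighd6-2, Ighj1: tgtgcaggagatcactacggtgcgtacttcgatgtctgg
PBS mouse 4, Ighv3-8, Ighd3-1, Ighj2: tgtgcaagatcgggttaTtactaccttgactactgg
PBS mouse 5, Ighv3-8, Ighd2-10, Ighj4: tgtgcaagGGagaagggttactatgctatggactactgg
PBS mouse 6, Ighv3-1, Ighd2-5, Ighj3: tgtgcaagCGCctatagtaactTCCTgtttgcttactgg
UPEC mouse 1, Ighv12-3, Ighd2-3, Ighj1: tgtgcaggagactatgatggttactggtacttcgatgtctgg
UPEC mouse 2, Ighv3-8, Ighd1-1, Ighj4: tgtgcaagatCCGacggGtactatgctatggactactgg
UPEC mouse 3, Ighv3-8, Ighd2-2, Ighj2: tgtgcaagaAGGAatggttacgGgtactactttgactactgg
UPEC mouse 4, Ighv3-8, Ighd2-1, Ighj2: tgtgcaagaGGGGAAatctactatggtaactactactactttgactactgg
UPEC mouse 5, Ighv12-3, Ighd2-3, Ighj2: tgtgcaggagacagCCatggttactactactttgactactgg

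The second set shows junctions that different mice made alike. It holds the 5 clonotypes found in more than 2 intravascular libraries, followed by the 3 with the most rows among the 9 found in exactly 2 libraries. The other 6 of those 9, with 2 or 3 rows each, are not printed, and they include the shared clonotypes of Ighv3-1, Ighv5-6 and Ighv5-17. The first clonotype of the set, without any N nucleotide, was present in 10 of 11 libraries.
Shared clonotype 1, Ighv11-2, Ighd2-5, Ighj1: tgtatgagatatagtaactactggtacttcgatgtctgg
Shared clonotype 2, Ighv11-2, Ighd2-1, Ighj1: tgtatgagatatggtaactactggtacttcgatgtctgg
Shared clonotype 3, Ighv12-3, Ighd2-3, Ighj1: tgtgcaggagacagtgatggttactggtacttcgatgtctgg
Shared clonotype 4, Ighv11-2, Ighd1-1, Ighj1: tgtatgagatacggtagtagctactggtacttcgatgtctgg
Shared clonotype 5, Ighv11-2, Ighd2-5, Ighj1: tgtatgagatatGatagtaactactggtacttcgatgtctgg
Shared clonotype 6, Ighv12-3, Ighd3-2, Ighj1: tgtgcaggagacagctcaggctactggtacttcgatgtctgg
Shared clonotype 7, Ighv12-3, Ighd2-3, Ighj1: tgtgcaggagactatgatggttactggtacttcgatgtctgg
Shared clonotype 8, Ighv12-3, Ighd1-1, Ighj1: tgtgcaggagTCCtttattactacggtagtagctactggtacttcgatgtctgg

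The intravascular repertoire was mostly unswitched in both treatments. Of the 5492 rows, 4645 carried Ighm, the IgM constant region, and 785 carried Ighd, that of IgD. The remaining 62 rows were 27 of Igha, 16 of Ighg2b, 9 of Ighg3, 4 of Ighg2a, 3 of Ighe and 3 of Ighg1, with 0 of Ighg2c. Switched rows made up between 0 and 2.59% of a library. The highest library, PBS mouse 1, had 15 switched rows, and 7 of these were 1 clonotype of Ighv7-3. It also held 10 of the 16 Ighg2b rows. PBS mouse 3 had none in 498 rows, which allows a share of up to 0.602%, taken here and for later counts of 0 as 3 rows of the library. The mean was 1.08% ± 0.939 (SD, n = 6) with PBS and 1.30% ± 0.675 (SD, n = 5) with UPEC (exact Mann-Whitney p = 0.662). The isotype of a row was read from the order of 9 read numbers in its name, taken as alphabetical, and this order could not be checked against the names, which are cut off after the first. The split between Ighg2a and Ighg2c rests on this order and on the authors' matching of constant regions, and neither was checked.

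Ighd rows were less frequent after UPEC when each clonotype was counted once, but the difference did not pass the threshold after adjustment. Once per clonotype, Ighd took 23.3%, 25.0%, 17.8%, 24.9%, 17.6% and 20.5% in PBS mice 1 to 6. In UPEC mice 1 to 5 it took 17.0%, 15.4%, 13.3%, 15.4% and 17.9%. Of the 5 UPEC mice, 4 lay below the lowest PBS mouse, and UPEC mouse 5 overlapped with PBS mice 3 and 5. The means were 21.5% ± 3.35 (SD, n = 6) and 15.8% ± 1.79 (SD, n = 5), a difference of -5.72 percentage points with a 95% permutation interval from -9.61 to -1.66. The exact Mann-Whitney p was 0.0173 and the adjusted p was 0.273. Leaving out each mouse in turn gave differences from -6.49 to -5.03 points, all below 0.

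By row the same comparison was weaker. Ighd took 17.1%, 23.7%, 14.3%, 20.1%, 17.2% and 9.82% of rows in PBS mice 1 to 6, and 16.7%, 16.1%, 10.9%, 7.57% and 15.6% in UPEC mice 1 to 5. The groups overlapped, and the lowest PBS value belonged to mouse 6, whose largest clonotype had only Ighm rows. The means of 17.0% ± 4.77 (SD, n = 6) and 13.4% ± 4.00 (SD, n = 5) differed by -3.63 points (exact Mann-Whitney p = 0.177, adjusted p = 0.931). Leaving out each mouse in turn gave differences from -5.07 points without PBS mouse 6 (exact p = 0.0556) to -2.18 points without UPEC mouse 4 (exact p = 0.352). In bulk RNA of this kind, fewer cells with Ighd transcripts and less Ighd RNA per cell cannot be told apart. Ighd rows lay near the limit of 2 reads, with library means of 2.52 to 3.83 reads against 4.66 to 7.62 for Ighm rows. The Ighd means averaged 3.35 reads with PBS and 2.94 with UPEC. Among rows of at least 3 reads the difference by row was -3.82 points (exact Mann-Whitney p = 0.0823). Whether Ighd sequences were lost below the limit was not tested.

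Ighm made up nearly all of the remainder and moved the other way. By row it took 80.3%, 75.3%, 85.7%, 79.2%, 81.1% and 89.7% in PBS mice 1 to 6, against 82.2%, 82.1%, 88.8%, 91.3% and 82.2% in UPEC mice 1 to 5. Once per clonotype the means were 77.4% ± 3.47 (SD, n = 6) with PBS and 82.7% ± 2.43 (SD, n = 5) with UPEC, a difference of 5.37 points with an interval from 1.06 to 9.69 (exact Mann-Whitney p = 0.0303, adjusted p = 0.273). Leaving out a single mouse took this p above the threshold for 7 of the 11 mice, with a highest value of 0.0667. Between 7 and 19 clonotypes of a library had both Ighm and Ighd rows.

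**Figure D1:**
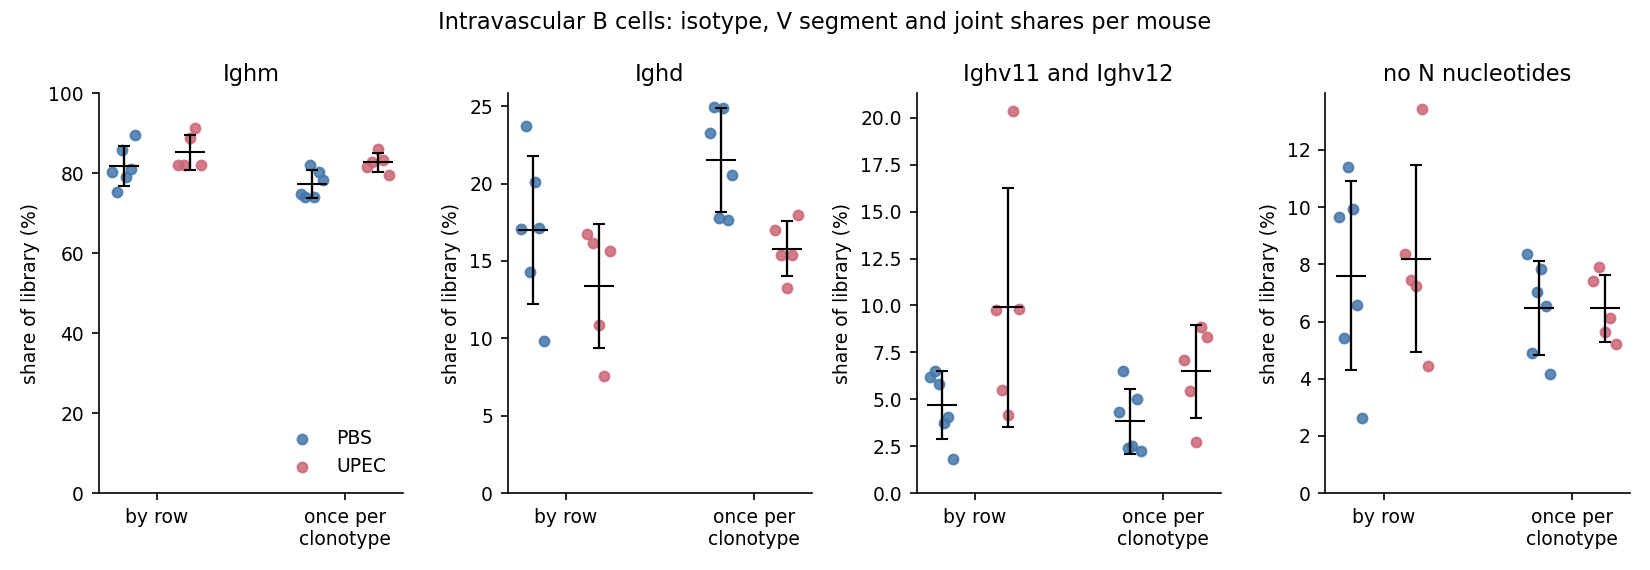
Shares of each intravascular library (y axis, percent) with Ighm, Ighd, an Ighv11 or Ighv12 segment, or no N nucleotides, by row and once per clonotype (x axis). The shares without N are of rows or clonotypes with a D. Each point is 1 mouse, blue for PBS (6) and red for UPEC (5), and black lines are mean and SD. Ighd once per clonotype lies at 21.5% with PBS and 15.8% with UPEC, and UPEC mouse 4 is the high point of Ighv11 and Ighv12 by row at 20.4%.

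The length of the listed V-D-J sequence bore on the isotype. Rows ran from 101 to 366 nucleotides (nt), and 914 rows (16.6%) were under 250 nt, with a median of 133 nt against 336 nt for the others. Of Ighm rows 19.2% were short, and of Ighd rows 2.29%. The share of short rows per library ranged from 7.73% to 21.3% and averaged 16.4% ± 4.90 (SD, n = 6) with PBS and 16.8% ± 2.15 (SD, n = 5) with UPEC (exact Mann-Whitney p = 0.931). Among rows of at least 250 nt, a limit chosen after the lengths were seen, Ighd once per clonotype took 25.4%, 26.2%, 20.5%, 29.6%, 20.5% and 25.7% in PBS mice 1 to 6 and 20.0%, 16.6%, 16.1%, 17.9% and 20.5% in UPEC mice 1 to 5. The lowest PBS mouse was at 20.54% and the highest UPEC mouse at 20.47%, so the groups did not overlap, by a narrow margin. The difference of -6.43 points had the smallest exact Mann-Whitney p that 6 against 5 mice allow, 0.00433, and an adjusted p of 0.0779. The main analysis by row and settings with another counting unit, other rows kept or another test made up 9 settings. Across these 9 the Ighd difference was below 0 in 9, from -7.25 to -2.47 points, and had an unadjusted p below 0.05 in 3. What the short rows are was not tested.

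Ighd was spread unevenly over the V families. Of Ighv5 rows, pooled over mice, 50.1% carried Ighd, of Ighv13 rows 42.4% and of Ighv15 rows 38.4%, against 16.2% for Ighv1, 8.82% for Ighv3, 8.26% for Ighv10 and 2.96% for Ighv11 and Ighv12 together. Within a mouse, the Ighd share of Ighv5 rows exceeded that of Ighv3 rows in 11 of 11 mice, by 43.0 points on average. The Ighv13 and Ighv15 shares also exceeded the Ighv3 share in 11 of 11 mice, and the exact signed-rank p was 0.000977 for each of the 3 families, 0.00195 after adjustment over 6 families. Some of these shares rest on few rows, since Ighv13 had 1 row in UPEC mouse 1 and at most 39 in another library, and Ighv15 had 4 to 24 rows. Ighv11 and Ighv12 rows had a lower Ighd share than Ighv3 rows in 9 of 11 mice (exact signed-rank p = 0.0186, adjusted p = 0.0278). Ighv1 rows did not differ from Ighv3 rows beyond the spread when all rows were used (higher in 7 of 11 mice, exact signed-rank p = 0.320), but they did among rows of at least 250 nt (higher in 11 of 11 mice, by 24.7 points, adjusted p = 0.00146 in the exact signed-rank test). Of long Ighv1 rows 36.1% carried Ighd, and of short ones 0.619%. These families were chosen after their values were seen.

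The Ighd share within a V family did not differ between treatments after adjustment over the 7 families. In Ighv15 rows it was 47.8% ± 15.2 (SD, n = 6) with PBS and 29.6% ± 8.07 (SD, n = 5) with UPEC (exact Mann-Whitney p = 0.0281, adjusted p = 0.197), and once per clonotype the exact p was 0.455. In Ighv1 rows it was 20.1% ± 9.92 (SD, n = 6) and 11.8% ± 4.60 (SD, n = 5, exact p = 0.126). Among Ighv1 rows of at least 250 nt it was 42.2% ± 11.4 (SD, n = 6) and 27.2% ± 7.02 (SD, n = 5). The exact Mann-Whitney p there was 0.126 and the adjusted p 0.439. In Ighv13 rows of that length the means went the other way, 40.1% with PBS and 53.9% with UPEC (exact Mann-Whitney p = 0.565). In Ighv3 rows, the largest family, it was 10.3% ± 4.82 (SD, n = 6) and 9.72% ± 5.29 (SD, n = 5, exact p = 0.792).

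**Figure D2:**
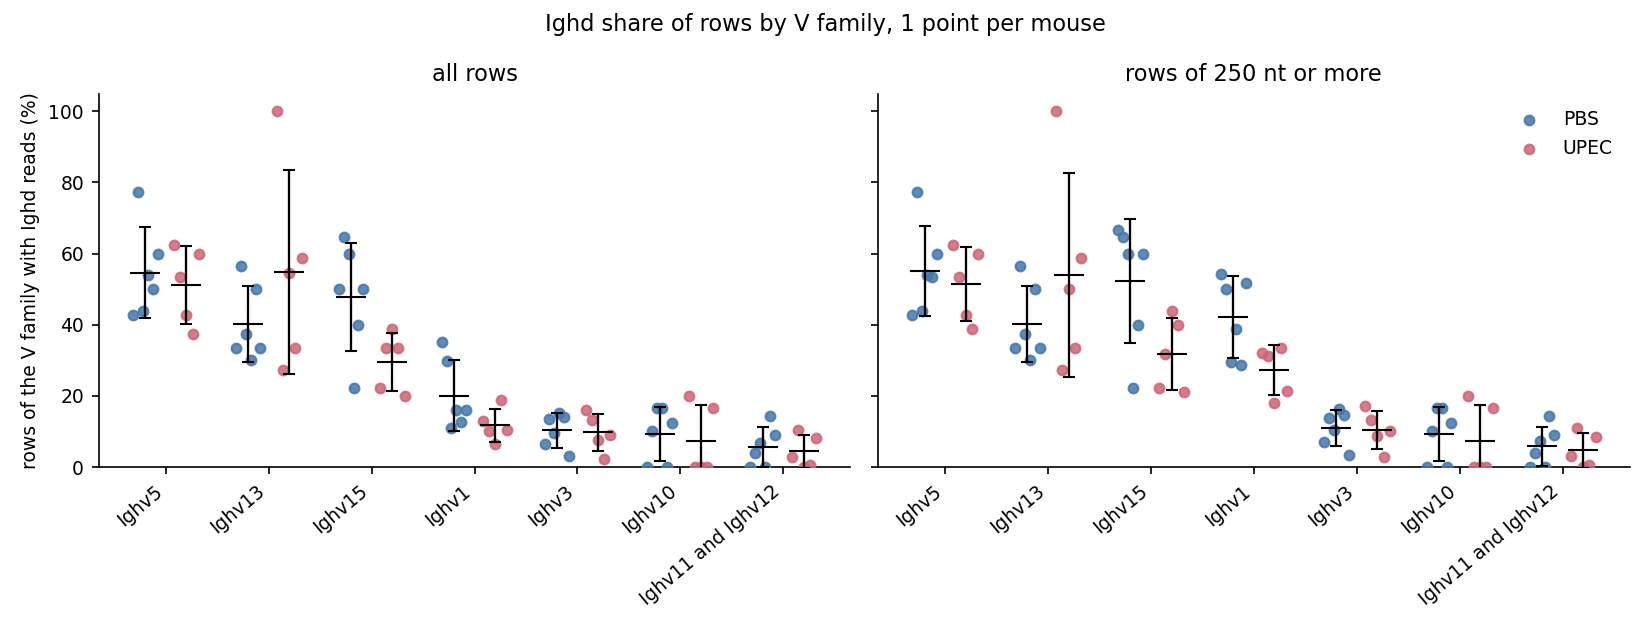
Percentage of the rows of a V family that carry Ighd (y axis) for 7 families (x axis), with all rows on the left and rows of at least 250 nt on the right. Points are mice (blue PBS, red UPEC) and black lines mean and SD. Ighv5 rows stand above Ighv3 rows in every mouse, and Ighv1 rows move up from 16.2% pooled to 36.1% when short rows are left out.

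V segments of the Ighv3 family dominated all 11 libraries. Ighv3 took 62.4% ± 5.53 (SD, n = 6) of rows with PBS and 59.8% ± 4.91 (SD, n = 5) with UPEC (exact Mann-Whitney p = 0.329). Its share ranged from 53.7% in UPEC mouse 4 to 70.9% in PBS mouse 6. Once per clonotype the shares were lower, 49.6% ± 7.75 (SD, n = 6) and 51.1% ± 10.4 (SD, n = 5), and Ighv3 clonotypes held 1.87 rows each against 1.06 for Ighv1 clonotypes. The libraries were amplified with a mixture of V primers, so shares compare libraries with each other and are not the shares of cells. Ighv1 took 15.6% ± 3.54 (SD, n = 6) and 16.2% ± 2.65 (SD, n = 5) of rows, and Ighv5 took 8.13% ± 2.96 (SD, n = 6) and 5.89% ± 1.54 (SD, n = 5), with exact Mann-Whitney p of 0.931 and 0.247.

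Of 68 V segments seen, 18 had at least 5 rows in at least 4 libraries and were tested with limma on log2 shares. It called 0 of 18 by row and 0 of 18 once per clonotype (0% called in each direction), and 1 segment by row and 0 once per clonotype had an unadjusted p below 0.05. The exact Mann-Whitney test per segment also called 0, with 0 unadjusted p below 0.05.

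Ighv3-8 (chr12:114322376-114322666 in GRCm38.p6, positions from RefSeq) had the largest mean share over the 11 libraries. Ighv3-8 took 17.8%, 26.2%, 21.7%, 25.8%, 26.2% and 15.9% of rows in PBS mice 1 to 6 and 24.5%, 26.2%, 29.1%, 29.4% and 21.0% in UPEC mice 1 to 5. These values overlap, and the log2 fold change was 0.24 ± 0.26 (SE, limma adjusted p = 0.729). Ighv3-1 (chr12:113964390-113964683) took 17.1%, 21.7%, 23.5%, 15.1%, 19.2% and 47.8% with PBS, and 19.5%, 23.6%, 17.8%, 10.4% and 21.0% with UPEC. In PBS mouse 6, 228 of the 292 Ighv3-1 rows were 1 clonotype. The 95% Wilson interval of the share in that library, 43.9% to 51.8%, lay above every other library. This interval treats rows as independent draws, which rows of 1 clonotype are not, so it is too narrow. The log2 fold change of Ighv3-1 was -0.32 ± 0.35 (SE, limma adjusted p = 0.729), and it was -0.098 without PBS mouse 6 and -0.13 without UPEC mouse 4.

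Ighv12-3 (chr12:114366526-114366819), a segment of B-1a receptors to phosphatidylcholine, had the lowest unadjusted p of the 18 segments. Ighv12-3 took 3.79%, 5.49%, 5.02%, 2.63%, 3.20% and 1.80% of rows in PBS mice 1 to 6 and 8.91%, 4.61%, 3.62%, 14.4% and 7.69% in UPEC mice 1 to 5. UPEC mice 1, 4 and 5 lay above all PBS mice, and UPEC mice 2 and 3 lay within their range. The log2 fold change was 1.01 ± 0.42 (SE), with a limma p of 0.0321 that was 0.578 after adjustment. It was 0.75 without UPEC mouse 4 and 0.83 without PBS mouse 6, and 0 segments had an unadjusted p below 0.05 when UPEC mouse 4, UPEC mouse 5, PBS mouse 5 or PBS mouse 6 was left out. Ighv11-2 (chr12:114048241-114048704), the other B-1a segment, took 2.41%, 0.998%, 0.803%, 1.09% and 0.872% in PBS mice 1 to 5 and 0 of 611 rows in PBS mouse 6, which allows up to 0.491%. In UPEC mice 1 to 5 it took 0.836%, 0.865%, 0.517%, 5.97% and 2.12%. Outside UPEC mouse 4 the groups overlapped fully, and the log2 fold change was 0.88 ± 0.80 (SE, limma adjusted p = 0.729). It was 0.36 without UPEC mouse 4 and 0.28 without PBS mouse 6.

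Together, Ighv11 and Ighv12 took 6.21%, 6.48%, 5.82%, 3.72%, 4.07% and 1.80% of rows in PBS mice 1 to 6 and 9.75%, 5.48%, 4.14%, 20.4% and 9.81% in UPEC mice 1 to 5. The mean was higher with UPEC, at 9.91% ± 6.37 (SD, n = 5) against 4.68% ± 1.82 (SD, n = 6), with 3 of 5 UPEC mice above all PBS mice. The exact Mann-Whitney p was 0.126 and the adjusted p 0.931, whereas the exact permutation test of the means gave an unadjusted p of 0.0455. Without UPEC mouse 4 the difference fell from 5.22 to 2.61 points (exact Mann-Whitney p = 0.257). Once per clonotype the shares were 3.83% ± 1.73 (SD, n = 6) and 6.48% ± 2.48 (SD, n = 5), a difference of 2.65 points with an interval from -0.283 to 5.54 (exact Mann-Whitney p = 0.0519, adjusted p = 0.312).

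Ighv1s22 took 5.38% ± 2.20 (SD, n = 6) of rows with PBS and 5.83% ± 2.15 (SD, n = 5) with UPEC, and 296 of its 296 rows were under 250 nt. The other segments among the 12 with the largest mean share did not differ beyond the spread in limma. Ighv3-6 took 9.89% ± 2.16 (SD, n = 6) and 9.60% ± 2.60 (SD, n = 5). Ighv3-5, Ighv15-2, Ighv13-2, Ighv5-17, Ighv3-3, Ighv1-48 and Ighv1-58 had mean shares between 2.04% and 3.35% over the 11 libraries, log2 fold changes from -1.43 (Ighv3-3) to 0.78 (Ighv3-5), and limma adjusted p of 0.729 or more. Ighv3-3 ranged from 0 of 938 rows in UPEC mouse 4, which allows up to 0.320%, to 5.48% in UPEC mouse 2, the widest spread within a treatment among these 7 segments relative to the mean. Its log2 fold change was -0.64 without UPEC mouse 4 and -2.12 without UPEC mouse 2.

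**Figure D3:**
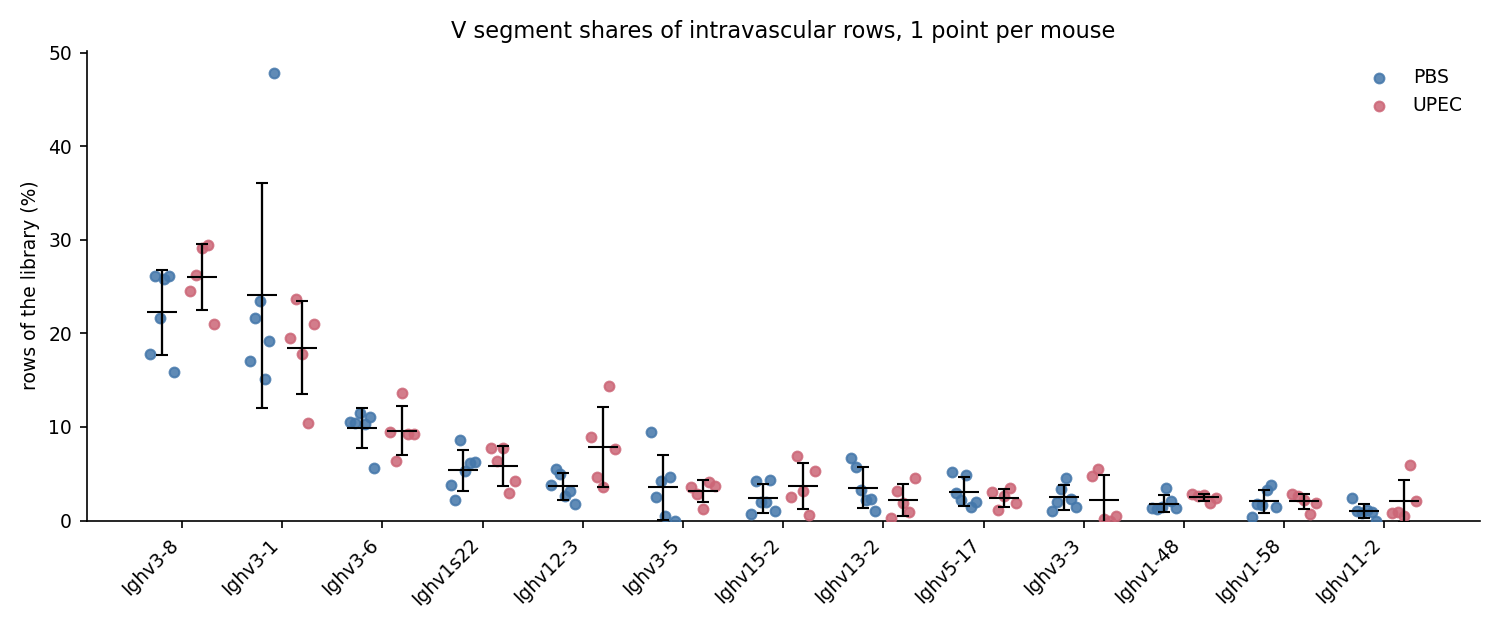
Share of rows (y axis, percent of the library) for the 12 V segments with the largest mean share and Ighv11-2 (x axis). Points are mice (blue PBS, red UPEC) and black lines mean and SD. PBS mouse 6 is the isolated Ighv3-1 point at 47.8%, and UPEC mouse 4 is the top Ighv12-3 point at 14.4%.

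D segments of family Ighd2 had the largest mean share, followed by Ighd1. Names of D segments are set apart here from Ighd, the IgD constant region, by their number. In UPEC mouse 3 Ighd1 exceeded Ighd2 by row (41.8% against 39.6%) and once per clonotype (41.4% against 41.2%). Once per clonotype Ighd1 also exceeded Ighd2 in PBS mouse 1 (40.1% against 38.5%). Ighd2 took 43.6%, 39.7%, 41.2%, 43.1%, 43.4% and 62.8% of rows with a D in PBS mice 1 to 6 and 44.97%, 41.2%, 39.6%, 47.5% and 40.4% in UPEC mice 1 to 5. The largest clonotype of PBS mouse 6, the highest library, uses Ighd2-5, and once per clonotype this library was at 49.0%. Ighd2-5 alone took 17.9% of its clonotypes with a D, against 3.66% (PBS mouse 1) to 8.10% (UPEC mouse 2) elsewhere. The once-per-clonotype share of that library therefore still stood apart, and the cause was not tested. Ighd1 took 32.7% ± 5.44 (SD, n = 6) and 36.1% ± 5.19 (SD, n = 5), Ighd3 10.1% ± 2.63 (SD, n = 6) and 9.85% ± 3.09 (SD, n = 5), and Ighd4 8.35% ± 3.502 (SD, n = 6) and 9.44% ± 2.61 (SD, n = 5). The 4 families did not pass the test between treatments, with exact Mann-Whitney p from 0.429 to 0.662. Ighd5 and Ighd6 averaged 0.708% and 1.88% of rows (exact p = 0.840 and 0.177). Of the 23 D segments, 0 passed the exact Mann-Whitney test after adjustment over the 23, by row or once per clonotype (0% called), and 1 had an unadjusted p below 0.05. This segment, Ighd6-2, named after its values were seen, took 0.527%, 0.773%, 4.35%, 0.451%, 0.599% and 0% of rows with a D in PBS mice 1 to 6. It took 0.279% in UPEC mouse 1 and 0% in the other 4 UPEC mice (exact p = 0.0216, adjusted p = 0.498, by row and once per clonotype). It has 32 rows in all, and the most frequent clonotype of PBS mouse 3, with 19 rows, uses this segment. The most used segment of family Ighd1 was Ighd1-1, with 31.3% of rows on average, that of Ighd2 was Ighd2-3 with 10.7%, that of Ighd3 was Ighd3-2 with 3.88%, and Ighd4-1 was the single segment of its family. No D was assigned in 128 rows (2.33%).

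The 4 J segments each took between 22.3% and 30.7% of rows on average, and none passed the test between treatments. Ighj1 took 20.3%, 25.4%, 26.7%, 18.6%, 23.5% and 13.6% of rows in PBS mice 1 to 6 and 24.2%, 26.2%, 20.9%, 26.1% and 19.6% in UPEC mice 1 to 5 (exact Mann-Whitney p = 0.537). Ighj2 took 29.4% ± 5.74 (SD, n = 6) and 32.3% ± 3.58 (SD, n = 5, exact p = 0.459), and Ighj4 24.2% ± 5.12 (SD, n = 6) and 23.4% ± 4.69 (SD, n = 5, exact p = 0.931). Ighj3 took 18.3%, 18.2%, 18.7%, 26.3%, 16.9% and 52.0% with PBS and 21.4%, 16.7%, 20.9%, 25.8% and 19.6% with UPEC (exact p = 0.931). PBS mouse 6 stood apart in Ighj3 by row and not once per clonotype. There its share of 26.2% was next to the 26.1% of PBS mouse 4. Once per clonotype the Ighj2 shares of the UPEC mice lay between 29.7% and 31.2%, an SD of 0.582 points, and the means of the treatments were 30.9% and 30.6%.

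Junctions had nearly the same length in both treatments. By row the mean junction was 41.5, 41.2, 41.7, 41.7, 41.9 and 41.1 nt in PBS mice 1 to 6 and 42.2, 42.4, 42.3, 42.0 and 41.1 nt in UPEC mice 1 to 5. Of the UPEC mice, 4 lay above all PBS mice, but the difference of 0.501 nt had an interval from -0.0866 to 1.03 (exact Mann-Whitney p = 0.0823, adjusted p = 0.931). Without UPEC mouse 5 it was 0.716 nt with an exact p of 0.00952. Once per clonotype the means were 42.1 ± 0.522 nt (SD, n = 6) and 42.1 ± 0.471 nt (SD, n = 5, exact p = 0.792). Short rows had longer junctions than rows of at least 250 nt in each of the 11 libraries, with means from 44.5 to 47.4 nt against 40.1 to 41.7 nt.

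N additions, counted over both joints of rows with a D, were alike as well. They averaged 5.27, 5.30, 5.14, 5.21, 5.29 and 6.17 nt per row in PBS mice 1 to 6 and 5.42, 5.33, 5.48, 4.81 and 5.18 nt in UPEC mice 1 to 5. PBS mouse 6 was high and UPEC mouse 4 low, and the other 9 lay between 5.14 and 5.48 nt. Once per clonotype the means were 5.66 ± 0.306 nt (SD, n = 6) and 5.60 ± 0.214 nt (SD, n = 5), a difference of -0.0511 nt with an interval from -0.418 to 0.298 (exact Mann-Whitney p = 1). The V to D joint held 3.23 nt with PBS and 3.25 nt with UPEC, and the D to J joint 2.42 and 2.36 nt. Of N nucleotides, 69.8% ± 1.22 (SD, n = 6) and 70.0% ± 1.54 (SD, n = 5) were G or C. Palindromic nucleotides added 0.706 nt and 0.742 nt per clonotype.

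Of rows with a D, those without N nucleotides made up 9.67%, 5.41%, 11.4%, 9.93%, 6.59% and 2.64% in PBS mice 1 to 6 and 8.38%, 7.46%, 7.26%, 13.4% and 4.46% in UPEC mice 1 to 5. The groups overlapped (exact Mann-Whitney p = 0.931), and once per clonotype the means were 6.48% and 6.46%. Among clonotypes, those of the B-1a segments were listed without N more often, as a description with no test. Of Ighv11-2 clonotypes, counted per mouse and pooled, 65.1% of 43 had no N and 90.7% used Ighj1, with 1.33 N nucleotides on average. Of 138 Ighv12-3 clonotypes 20.3% had no N and 51.4% used Ighj1. Of all 3567 clonotypes 22.01% used Ighj1, and of those with a D 6.51% had no N. By treatment and pooled over mice, no-N clonotypes were 11.1% of 54 Ighv12-3 clonotypes with PBS and 26.2% of 84 with UPEC. This difference was not tested over mice. By row, 8.74% of Ighv12-3 rows and 7.54% of all rows with a D had no N with PBS, and 37.3% and 9.29% with UPEC. These values are pooled over mice, and UPEC mouse 4 held 135 of the 233 UPEC Ighv12-3 rows. Shared clonotypes 3 and 6, both without N, had 11 and 21 rows in that mouse.

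**Figure D4:**
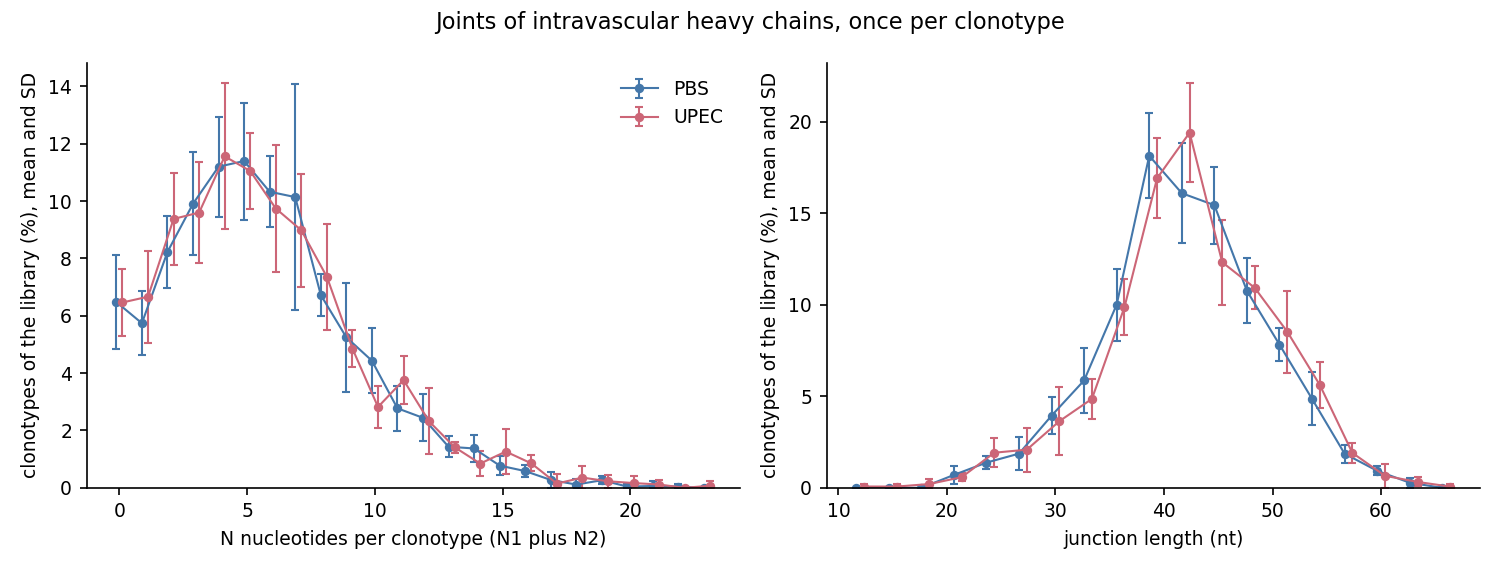
Distribution of N nucleotides over both joints (left, x axis in nt) and of junction length (right, x axis in nt) as the percentage of clonotypes of a library (y axis). The left panel covers clonotypes with a D only. Points and bars are mean and SD over 6 PBS mice (blue) and 5 UPEC mice (red). The curves overlap within their SD over most of the range, with 6.48% and 6.46% of clonotypes at 0 N nucleotides.

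Clonotype sizes varied widely between mice of each treatment. At an equal depth of 344 rows the expected number of unique clonotypes was 253, 297, 248, 252, 260 and 165 in PBS mice 1 to 6 and 299, 291, 240, 176 and 257 in UPEC mice 1 to 5. Each treatment had a single mouse well below the rest. The means were 246 ± 43.6 (SD, n = 6) and 253 ± 49.1 (SD, n = 5), and the difference of 7.00 clonotypes had an interval from -56.7 to 69.2 (exact Mann-Whitney p = 0.792). Without PBS mouse 6 the difference was -9.23 clonotypes, and without UPEC mouse 4 it was 26.1. It also fell below 0 without UPEC mouse 1 (-4.66) or UPEC mouse 2 (-2.54). Between 80.6% and 89.4% of the clonotypes of a library had 1 row. Clonotypes of at least 5 rows numbered 0 to 17 per library outside UPEC mouse 4, which had 29.

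The most frequent clonotype took 4.83%, 1.25%, 3.82%, 2.63%, 3.78% and 37.3% of rows in PBS mice 1 to 6 and 1.95%, 1.15%, 2.93%, 10.4% and 2.65% in UPEC mice 1 to 5. The 10 most frequent took 17.6%, 8.48%, 17.1%, 17.1%, 15.7% and 49.8% with PBS and 9.75%, 7.78%, 19.3%, 38.6% and 16.7% with UPEC. Neither measure passed the test between treatments (exact Mann-Whitney p = 0.429 and 0.792), and without PBS mouse 6 the difference in the most frequent clonotype changed from -5.11 to 0.568 points. In PBS mouse 6 the size lay in 1 clonotype, Ighv3-1 with Ighd2-5 and Ighj3, whose junction with 7 N nucleotides is printed above and was in none of the other 21 libraries. In UPEC mouse 4 it was spread, since 15 clonotypes had at least 10 rows. All 10 of its most frequent clonotypes had at least 14 rows, 6 used Ighv3-8, Ighv3-1 or Ighv3-5, and 4 used Ighv11-2 or Ighv12-3.

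The rows of a large clonotype were close variants of 1 sequence. Of the 441 rows in the most frequent clonotypes of the 11 libraries, 408 were within 3 edits (bases changed, added or lost) of the most read row, 29 were under 250 nt and 4 were neither. The most read row held 54.1% to 80.6% of the clonotype's reads. In PBS mouse 6 it held 1182 of 2186 reads, 222 of 228 rows were within 3 edits of it, and 95 rows had 2 reads. In UPEC mouse 4 it held 435 of 738 reads, and 92 of 98 rows were within 3 edits. A count of rows therefore also counts close variants, and whether these arose in cells or in amplification and sequencing was not tested. Variants that differ within the junction count as separate clonotypes, so values once per clonotype can hold them too. By reads, the PBS mouse 6 clonotype held 49.9% and that of UPEC mouse 4 held 11.8%. The most frequent clonotype was of Ighm rows alone in 10 libraries, and in UPEC mouse 5 it had 9 Ighm rows and 1 Ighd row.

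**Figure D5:**
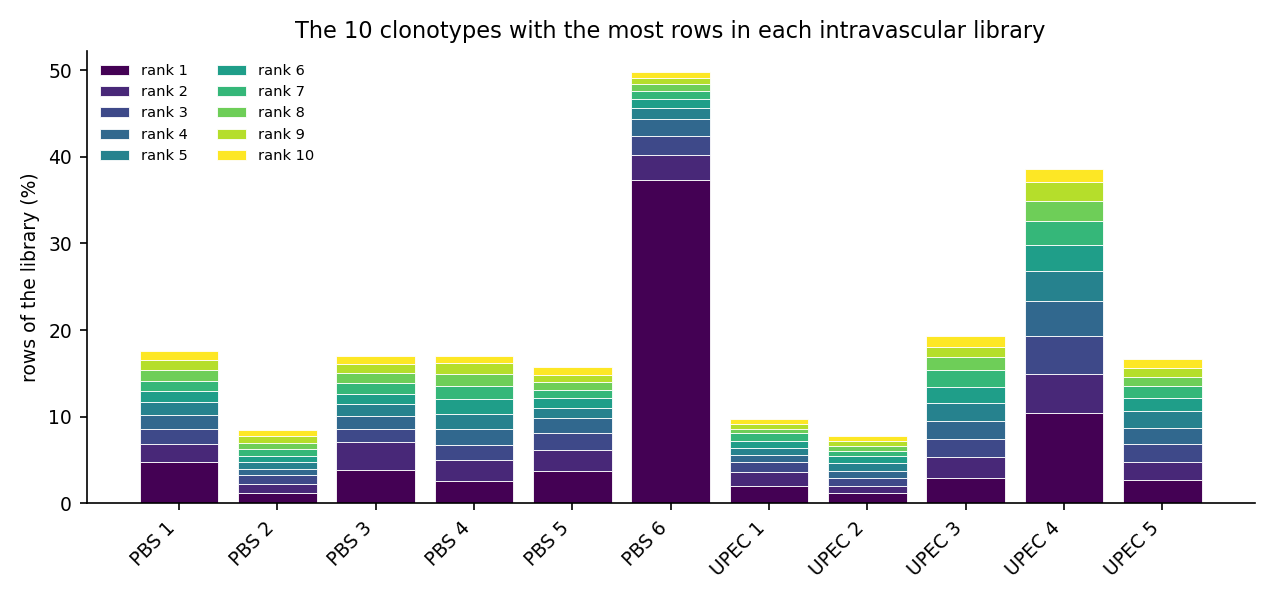
Share of rows (y axis, percent of the library) held by the 10 clonotypes with the most rows in each intravascular library (x axis), stacked from rank 1 at the bottom to rank 10 at the top. PBS mouse 6 reaches 49.8% with 37.3% in rank 1, and UPEC mouse 4 reaches 38.6% with 10.4% in rank 1.

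Few junctions were shared between mice, and most of those that were used Ighv11-2 or Ighv12-3. Of 3532 clonotypes over the 11 libraries, 14 were in at least 2. Of these, 5 used Ighv11-2, 6 used Ighv12-3 and 3 used another segment, 9 used Ighj1 and 10 had no N nucleotide. Both treatments held 7 of the 14, PBS alone 4 and UPEC alone 3. A pair of libraries shared 0 to 4 clonotypes, with a median of 2 within PBS, within UPEC and across the treatments. Of the 14, 11 were also in at least 1 extravascular library.

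Shared clonotype 1 had 6, 1, 1, 2, 1 and 0 rows in PBS mice 1 to 6 and 1, 1, 1, 9 and 1 in UPEC mice 1 to 5, and was in 11 of the 11 extravascular libraries. Shared clonotype 2, also without N, was in 8 libraries with 52 rows, of which 41 were in UPEC mouse 4. Shared clonotype 3, of Ighv12-3, was in 4 PBS libraries with 6 rows and in UPEC mouse 4 with 11 rows. Shared clonotypes 4 and 5 were in 4 libraries each, with 5 and 4 rows. Shared clonotype 6 had 21 of its 22 rows in UPEC mouse 4 and 1 in UPEC mouse 1, and shared clonotype 7, the most frequent of UPEC mouse 1, had 7 rows there and 1 in UPEC mouse 3. Rows in clonotypes found in another mouse made up 2.76%, 1.25%, 1.20%, 1.31%, 1.74% and 0.327% with PBS and 3.34%, 0.865%, 1.21%, 9.06% and 1.06% with UPEC (exact Mann-Whitney p = 0.931). Without UPEC mouse 4 the difference fell from 1.67 to 0.186 points.

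Junctions of an intravascular library were found in the extravascular library of the same mouse for 3.62%, 0.499%, 0.803%, 1.31%, 0.581% and 0% of rows in PBS mice 1 to 6 and 6.41%, 0.865%, 2.93%, 15.6% and 4.24% in UPEC mice 1 to 5. PBS mouse 6 had 0 of 611, which allows up to 0.491%. The share exceeded the mean share found in extravascular libraries of other mice in 9 of 11 mice (medians 1.31% and 0.716%, exact signed-rank p = 0.0137). The extravascular libraries held 244 to 2134 rows, and the part of this depth in the share was not tested.

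The change with UPEC was set against that in the extravascular libraries of the same mice, by an exact permutation test over mice of the difference between the 2 changes. Of 23 measures, none passed after adjustment, and 3 had an unadjusted p below 0.05. Ighm by row changed by 3.42 points in the vessels and -10.6 points outside them (exact p = 0.0303), Ighd by -3.63 and 7.68 points (exact p = 0.0411), and Ighj3 by -4.16 and 11.7 points (exact p = 0.0238), with an adjusted p of 0.315 for each. The intravascular Ighj3 change was 1.24 points without PBS mouse 6 and -0.197 points once per clonotype, and without that mouse the difference between the compartments was -13.8 points (exact p = 0.0556). The mean Ighd share of the extravascular libraries was 4.27% with PBS and 11.9% with UPEC, below and near the intravascular 17.0% and 13.4%.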

How the data were processed

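RNA of sorted kidney B cells was reverse transcribed with barcoded reverse primers, amplified with a multiplex of V primers and sequenced on a MiSeq. The authors filtered reads on quality with QUASR, merged pairs, assigned isotypes by 10-mer matching, kept sequences with more than 1 read and annotated them with IMGT/V-QUEST. The deposited tables hold text columns of nucleotides and segment names, with read numbers per isotype in each sequence name, and no coordinates. A genome build for these tables is not given in the sources used here. Row totals were 344 to 938 per library.

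Groups came from the labels, and mouse numbers did not pair treatments (same-numbered correlations from -0.627 to -0.0672). All rows were used, and a first-listed V, D or J name was taken (275 rows, 5.01%, listed several V names). N nucleotides were those of the N1 and N2 columns. Unique clonotypes were expected numbers at 344 rows. Shares were compared by exact Mann-Whitney tests, with intervals from inverted permutation tests. V segments with at least 5 rows in 4 libraries were tested with limma 3.58.1 (R 4.3.3) on log2 shares with 0.5 rows added, and limma was tested on simulated data. Python 3.11.15 and scipy 1.17.1 were used. Named segments were Ighv11-2, Ighv12-3 and the 12 with the largest mean row share. Members, lists and tests were chosen with earlier results of these data known. Alternatives were once per clonotype, by reads, at least 3 reads, other filters, and each mouse left out. Lines of V segments without a RefSeq position (2 of 68) were kept.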

Additional observations from a re-analysis of the deposited data

Results flagged for a closer look

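Of 46 sets of values (23 measures in each treatment), 11 held a mouse far from the others by Dixon's criterion at the 95% level, where chance gives about 1 in 20, or 2.3. PBS mouse 6 gave 7 of these by row: 165 unique clonotypes at equal depth, 49.8% of rows in its 10 most frequent clonotypes, 37.3% in the most frequent, 6.17 N nucleotides per row, 21.9% of rows with family Ighd1, 62.8% with Ighd2 and 52.0% with Ighj3. The most frequent clonotype of that library, with Ighd2-5, Ighj3 and 7 N nucleotides, enters all 7. UPEC mouse 4 gave 2, with 10.4% of rows in its most frequent clonotype and 15.3% with family Ighd3. UPEC mouse 1 had 89.7% of clonotypes seen once at equal depth, and UPEC mouse 5 had 13.9% of rows with family Ighd4.

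For 3 measures the change with UPEC differed between intravascular and extravascular libraries at an unadjusted p below 0.05 in the exact permutation test. The intravascular change minus the extravascular one was 14.0 points for Ighm (exact p = 0.0303), -11.3 points for Ighd (exact p = 0.0411) and -15.9 points for Ighj3 (exact p = 0.0238). All 3 had an adjusted p of 0.315.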

How the results depend on the processing

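By row, no comparison between treatments passed after adjustment, and limma called 0 V segments under every setting run. Counting once per clonotype took Ighm (5.37 points) and Ighd (-5.72) below an unadjusted p of 0.05, as did clonotypes of 1 row (6.91 and -7.25) and long rows once per clonotype (6.03 and -6.43), the last 2 chosen after seeing the data. A permutation test of means did so for Ighv11 and Ighv12 (5.22). Directions that turned were all of differences that had not passed a test, and the cause was not tested. Once per clonotype, they turned for rows without N (-0.0155), Ighv3 (1.44), Ighd1 family (-0.0375), Ighd2 family (0.446), Ighj1 (-0.632), Ighj2 (-0.205) and Ighj4 (1.03). In long rows once per clonotype they turned for junction length (-0.125 nt), rows without N (-0.0371), Ighv3 (2.39) and Ighj4 (0.0857), and in long rows for Ighv1 (-0.152). With at least 3 reads they turned for switched isotypes (-0.634) and Ighj4 (0.723), by reads for switched isotypes (-0.200) and Ighv3-6 (log2 fold change 0.086), and at the depth of 244 rows for singletons (-0.0566).

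Mice share only a number: 0 of 5 same-numbered pairs had a correlation over 0.1. With the replicate number as a block, which leaves out PBS mouse 6, directions turned for unique clonotypes (-9.23), the 10 most frequent (3.25) and the most frequent clonotype (0.568), rows without N (-0.399), Ighd2 family (0.530), Ighj3 (1.24) and Ighv3-5 (-0.044), and 0 V segments were called.

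Leaving out each mouse in turn gave ranges that cross 0 for unique clonotypes (-9.23 to 26.1), singletons (-0.948 to 1.01), the 10 most frequent (-7.55 to 3.25) and the most frequent clonotype (-6.76 to 0.568), rows without N (-0.714 to 1.53), Ighv1 (-0.688 to 1.27), the families Ighd2 (-4.09 to 0.530), Ighd3 (-1.62 to 0.187) and Ighd4 (-0.0238 to 2.42), Ighj3 (-5.80 to 1.24) and Ighj4 (-2.60 to 0.955), and for Ighv1-58 (-0.22 to 0.47), Ighv1s22 (-0.083 to 0.35), Ighv3-5 (-0.044 to 1.27) and Ighv3-6 (-0.20 to 0.091). Without crossing 0, the log2 fold change moved by over 1.5 times for Ighv11-2 (0.28 to 1.20), Ighv3-3 (-2.12 to -0.64), Ighv3-1 (-0.43 to -0.098), Ighv3-8 (0.15 to 0.32), Ighv13-2 (-1.26 to -0.36), Ighv15-2 (0.24 to 1.04) and Ighv5-17 (-0.47 to -0.058), and the difference by row for Ighm (1.93 to 4.97), Ighd (-5.07 to -2.18), switched isotypes (0.0015 to 0.519), clonotypes of another mouse (0.186 to 2.24), N additions (-0.217 to -0.0019 nt), Ighv3 (-3.97 to -0.934), Ighv5 (-2.94 to -1.46), Ighv11 and Ighv12 (2.61 to 6.67), Ighd1 family (1.27 to 5.18), Ighj1 (0.487 to 3.11) and Ighj2 (0.881 to 4.44). The junction length difference stayed between 0.393 and 0.716 nt and passed unadjusted without UPEC mouse 5. The differences between compartments stayed on their side of 0 (Ighm 10.8 to 17.7, Ighd -13.9 to -7.55, Ighj3 -18.8 to -8.54) but rose above an unadjusted p of 0.05 in 7, 7 and 4 of 11 cases. With 344 to 938 rows a library, a segment absent from a library may reach 0.320% to 0.872% of it.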
